A study of Macaca mulatta with 12 samples.

Results

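The baseline dorsal raphe transcriptome was described from 3 Affymetrix rhesus arrays, those of the animals given placebo, out of 12 arrays in the series. The arrays were chosen by their titles alone, and no treatment contrast was made. Each array held RNA from 1 female rhesus monkey. Their titles include OVX, which was taken to mean ovariectomized. All 4 groups of 3 animals carried Silastic capsules under the skin for 1 month: the placebo group, and groups given estrogen, progesterone, or estrogen plus progesterone, which enter here only through the scaling of the arrays and as a reference for the spread. The tissue was a block of the dorsal raphe, with every cell type of that block in 1 RNA pool. In such a sample, fewer cells of a type and less RNA per cell cannot be told apart.

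The dorsal raphe, in the midline of the midbrain and upper pons, holds a large share of the serotonin neurons that project to the forebrain. These neurons make serotonin with the enzyme TPH2, load it into vesicles with SLC18A2 (VMAT2), and keep their identity through transcription factors such as FEV (PET1) and GATA3. They lie among GABA, glutamate and dopamine neurons, myelinated fibres, astrocytes and the lining of the aqueduct.

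The ranking used the mean log2 intensity over the 3 placebo arrays, with each gene represented by its brightest probe set. It is a ranking of signal, which holds how well a probe binds as well as how much transcript was present. Of 52766 probe sets without controls, 23265 carried 1 gene symbol and gave 12993 genes. A further 27449 carried no symbol, 1691 a locus number and 361 several symbols, and these were counted but not named. A gene was called above background where its deposited intensity exceeded, on each of the 3 arrays, the brightest of 42 control probe sets for bacterial transcripts. By that rule 9120 genes, or 70.2%, were above background. The brightest of these controls lay at an intensity of 82.6 on the first array, 61.6 on the second and 39.3 on the third, so the rule was strictest on the first. On the log2 scale, the mean of those 3 limits was 5.87, and the median of all genes was 7.58.

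The first genes in the ranking under placebo were MBP, GFAP, ALDOC, ACTB and RALGAPA1. MBP, the myelin basic protein of oligodendrocytes, ranked first, with log2 intensities of 13.39, 13.43 and 13.43 on the 3 arrays. GFAP, the intermediate filament of astrocytes, followed at 13.18, 13.08 and 13.11. ALDOC, a glycolytic enzyme that astrocytes carry in brain, ranked next at 13.09, 12.91 and 13.18. The 3 arrays barely differed for these genes, with SDs of 0.02, 0.05 and 0.14. ACTB, the cytoplasmic actin, had a mean of 13.05, RALGAPA1, a regulator of Ral GTPases, one of 13.02, and ATP1B1, a subunit of the sodium pump, one of 12.98. GLUL, the glutamine synthetase of astrocytes, lay at 12.99, 12.98 and 12.98. CKB, the brain creatine kinase, reached 12.74, and GPM6A, a neuronal membrane glycoprotein, 12.71. NDRG2, which is abundant in astrocytes, reached 12.73.

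Among the 25 brightest genes, 6 belonged to a gene list described below, and among the 100 brightest, 30 did. The 100 held 9 cytosolic ribosomal protein genes, 5 astrocyte markers, 3 glycolysis enzymes, 3 chaperones, 2 oligodendrocyte markers and 2 general neuron markers. They held 0 markers of serotonin, dopamine, noradrenaline, GABA, glutamate or cholinergic neurons. Those lists had only 10, 7, 4, 4, 5 and 5 measured genes, and the ranking held 12993. With lists that short, a count of 0 among the 100 brightest says little about these neurons. The neuropeptide list gave 1 of them, SCG2, a secretogranin of dense-core vesicles, and the steroid list gave PGRMC1, a membrane-associated progesterone-binding protein. Probe sets without a usable name were frequent at the top. Of the 100 brightest probe sets, 45 carried no symbol, 10 a locus number and 7 several symbols, while 38 carried 1 symbol. The 6 probe sets whose names mark them as mitochondrial were all above background, and 2 of these were among the 100 brightest, at ranks 9 and 17.

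Several high ranks rested on 1 probe set of a gene whose other probe sets were dim. Of the 25 brightest genes, 3 had a single probe set. Among the 22 others, 8 had a further probe set that was not above background, and in 8 the second-brightest probe set lay over 3 log2 units lower. SPDYA, a cell cycle regulator, ranked 8th at a mean of 12.89, while its other probe set lay at the floor of 2.32. NLGN4X, a synaptic adhesion protein, ranked 13th at 12.77, and LIN7A, a synaptic scaffold protein, 9th at 12.88. Both have that wide a gap to their other probe sets. GFAP is a further one, at 13.12 against 8.67, and so is RALGAPA1, at 13.02 against 9.39. MBP, ALDOC, GLUL and ATP1B1 each had a second probe set within 1 log2 unit of the first, although GLUL also had probe sets at 4.24 and 3.14, below background. The same pattern held in the whole ranking: 6011 genes (46.3%) had more than 1 probe set, the median gap between the brightest and the dimmest was 2.02, and 1828 (30.4%) had a gap over 3. In the RefSeq annotation of T2T-MMU8v2.0, MBP overlaps ZNF236, GFAP overlaps FAM187A, SPDYA overlaps TRMT61B and WDR43, LIN7A overlaps an unnamed locus, NME3 overlaps MAPK8IP3, and RPS28 overlaps CD320, so signal from these neighbours could not be told apart.

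**Figure D1:**
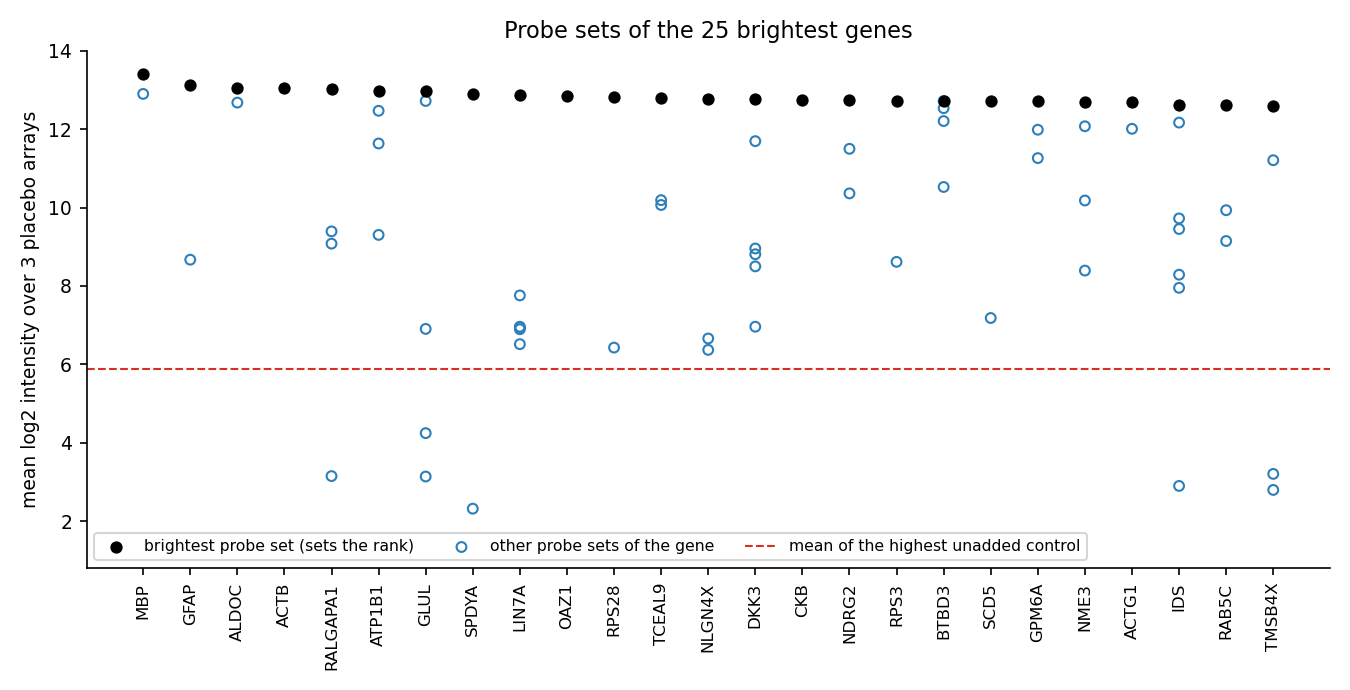
Mean log2 intensity over the 3 placebo arrays (y axis) of every probe set of the 25 brightest genes (x axis, in order of rank), with filled points for the probe set that set the rank and open points for the others. The filled points fall from 13.42 for MBP to 12.59 for TMSB4X, while in 8 genes even the highest open point lies over 3 units lower, in SPDYA at the floor.

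Glial and general neuronal genes were bright as groups. Of 11 astrocyte markers measured, 11 were above background and 9 were in the top decile of all genes, which is 10% by construction. Their median log2 intensity was 11.85, against 7.58 for all genes. S100B, a calcium-binding protein, had a mean of 12.47 and APOE, the lipid carrier, 12.31, while SOX9, the astrocyte transcription factor, was the dimmest at 7.70. Of 10 oligodendrocyte markers, 10 were above background and 9 in the top decile, with a median of 10.91. After MBP came CNP, a myelin phosphodiesterase, at 12.40 and ENPP2 (autotaxin) at 11.84. The dimmest was ASPA, which breaks down N-acetylaspartate, at 9.12. All 5 oligodendrocyte precursor markers measured were above background, from the proteoglycan gene CSPG5 at 10.89 down to the receptor GPR17 at 7.23.

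General neuron markers stood in the same range as the glial ones. Of 10 measured, 9 were above background and 8 in the top decile, with a median of 11.73. STMN2, a microtubule regulator of growing neurites, gave 12.27, 12.44 and 12.34. UCHL1, a neuronal deubiquitinase, gave 12.11, 12.25 and 12.26, and THY1, a neuronal surface protein, 11.70, 12.25 and 11.77. ELAVL3, a neuronal RNA-binding protein, was the exception, at 2.32, 5.02 and 5.50, where 2.32 is the floor. Of 10 synaptic vesicle genes, 9 were above background with a median of 10.38. The brightest were SYT1, the calcium sensor of release, at 11.75, SV2A at 11.38 and SNCB at 11.26, and STX1A did not pass, at 6.47. Further SYT1 probe sets were low on the first array, at 10.20 against 12.43 and 12.15, and at 7.71 against 9.78 and 9.55. Another was steadier, at 10.89, 11.05 and 10.76.

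Microglia and vessel genes were dimmer. Of 14 microglia markers, 13 were above background but 1 was in the top decile, CD68, a lysosomal protein, at 10.07, 10.16 and 10.25. CD74, the invariant chain, had a mean of 9.56 and P2RY12, the purinergic receptor of resting microglia, 9.55. TMEM119, a microglial membrane protein, gave 4.19, 4.22 and 4.19, below background on each array. Of 12 endothelial and mural markers, 9 were above background (75.0%, near the 70.2% of all genes) and 0 in the top decile, with a median of 7.40. The glucose transporter SLC2A1, at 9.46, was the brightest, and FLT1, VWF and COL1A1 did not pass. VWF, the clotting factor of endothelium, gave 6.98 on the first array but 4.12 and 5.0 on the others. Of 8 ependyma and choroid plexus markers, 5 were above background (62.5%, below the 70.2% of all genes). The brightest was the water channel AQP1 at 8.21, and CFAP126, FOLR1 and KCNJ13 did not pass.

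**Figure D2:**
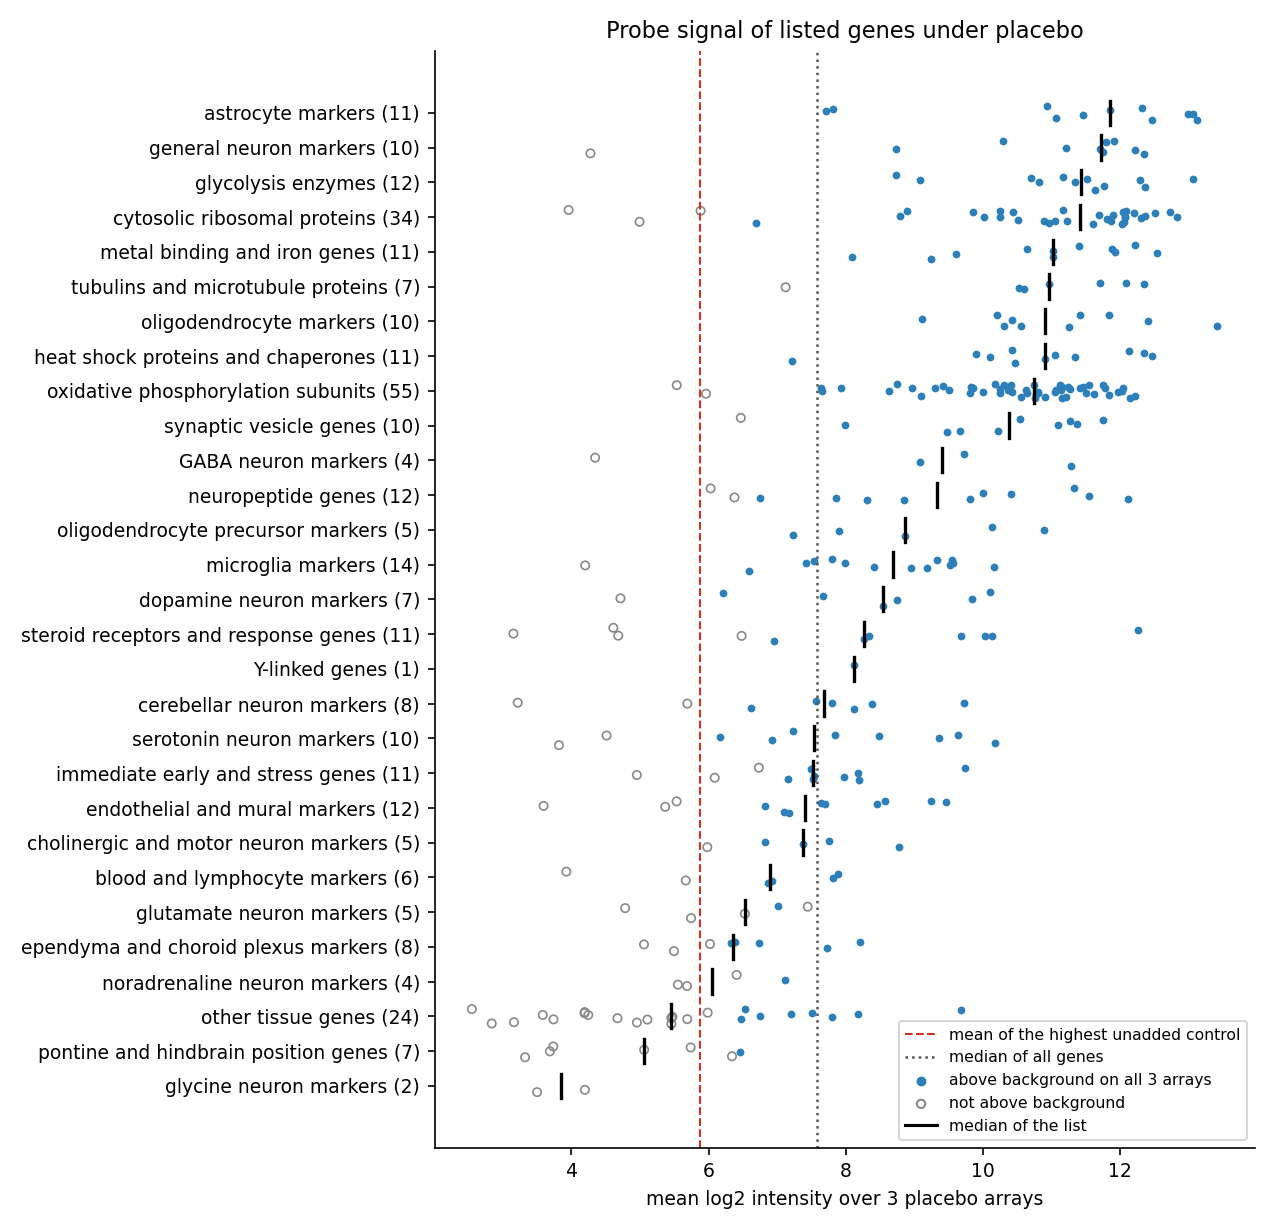
Mean log2 intensity over the 3 placebo arrays (x axis) of each measured gene of 29 lists (y axis, number measured in brackets), filled where above background on all 3 arrays, with a bar at each list's median, a dashed line at the mean background level of 5.87 and a dotted line at the all-gene median of 7.58. Astrocyte and general neuron markers have the highest medians (11.85 and 11.73), and the serotonin list lies near the median of all genes at 7.54.

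All 4 genes that mark serotonin neurons here, TPH2, FEV, SLC18A2 and GATA3, were above background on all 3 arrays. SLC18A2, which packs monoamines into vesicles, gave 10.12, 10.45 and 9.95 and ranked 1106th of 12993 genes. FEV, the transcription factor that defines serotonin neurons, gave 9.30, 10.14 and 9.46 at rank 1805. GATA3, a transcription factor upstream of it, gave 9.16, 9.58 and 9.33 at rank 2252. All 3 were highest on the second array. A second probe set of SLC18A2 had a mean of 8.60 and a second one of GATA3 7.91, both above background. TPH2, the rate-limiting enzyme of brain serotonin synthesis, was nearer the background, at 6.47, 7.44 and 7.80 on its single probe set and rank 7333. Its deposited intensities were 87.6, 177 and 223.0, so on the first array it stood only just above the limit of 82.6. TPH2 was lowest on the first array and highest on the third, an order that neither FEV, SLC18A2 nor GATA3 shared.

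Of the whole serotonin list, 10 of 14 genes had a probe set with that name. Of these, 8 were above background (80.0%, against 70.2% of all genes). Their median was 7.54, close to that of all genes. GCH1, which makes the cofactor that TPH2 needs, gave 8.04, 8.84 and 8.57. GATA2, a further transcription factor of the lineage, gave 8.28, 8.04 and 7.21, and HTR1B, a serotonin receptor on axon terminals, gave 7.36, 6.92 and 6.50. SLC22A3, a low-affinity monoamine transporter, gave 6.82, 6.0 and 5.70. On these probe sets the last 3 genes were highest on the first array and lowest on the third, unlike the 4 markers above. For GATA2 the order held on that probe set alone: its others gave 7.37, 7.55 and 7.41, and 7.17, 7.26 and 7.02, highest on the second array. HTR1A, the autoreceptor of serotonin neurons, was not above background at 3.57, 4.32 and 5.65, nor was the transcription factor LMX1B at 3.98, 4.32 and 3.15. SLC6A4, EN1, MAOB and DDC had no probe set that could be named and were not analysed here. The summed deposited intensity of the 10 genes, before quantile normalization, was 3303 on the first array, 4401 on the second and 3311 on the third. SLC18A2 and GCH1 serve all monoamine neurons, and GATA2 and GATA3 also mark some GABA neurons, so these genes do not single out serotonin cells.

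**Figure D3:**
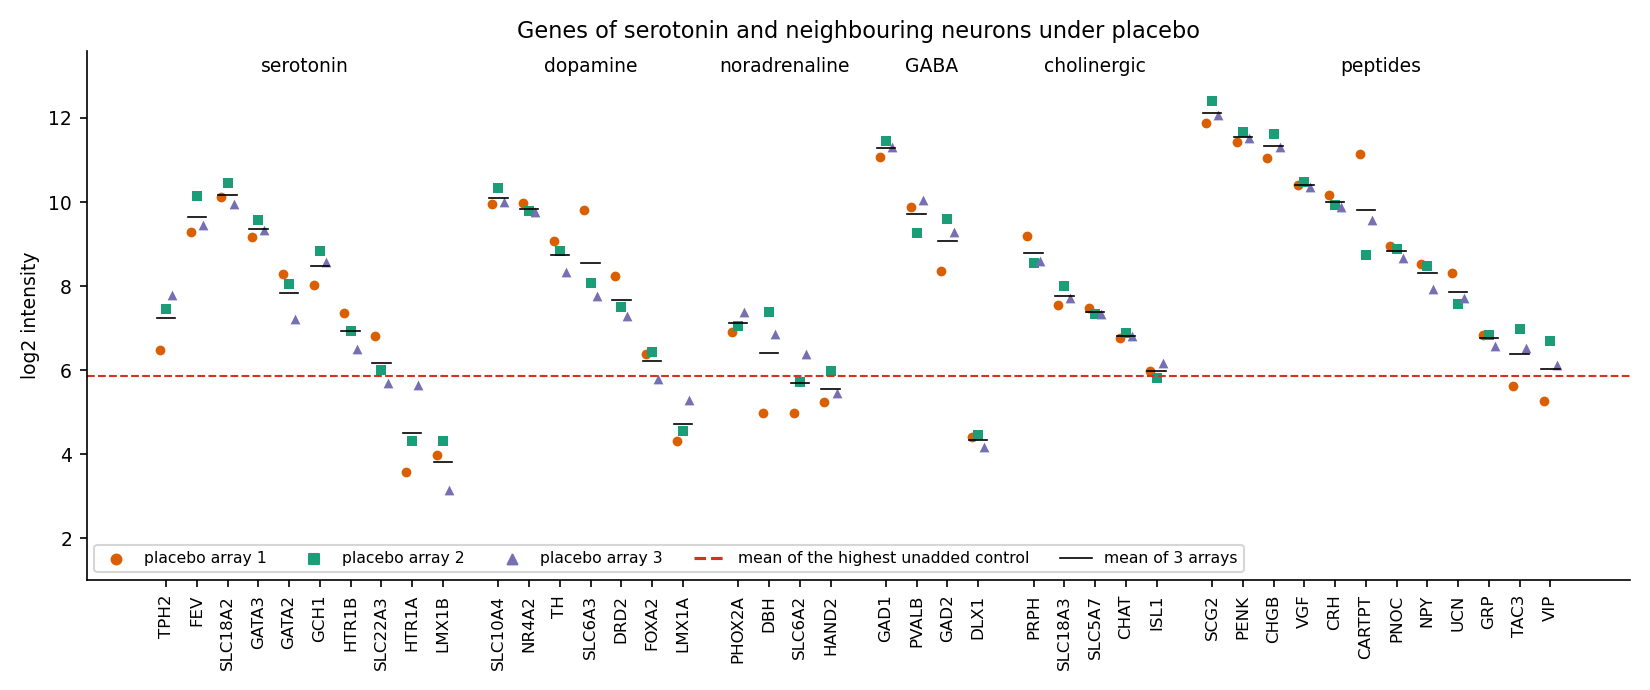
Log2 intensity (y axis) of each measured gene (x axis) for serotonin, dopamine, noradrenaline, GABA and cholinergic neurons and for neuropeptides, with 1 symbol per placebo array, a bar at the mean of 3 and a dashed line at the mean background level of 5.87. SLC6A3 and CARTPT stand high on the first array (9.81 and 11.15), and TPH2 and DBH stand low on it (6.47 and 4.97).

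Of 7 dopamine neuron genes measured, 6 were above background (85.7%, against 70.2% of all genes), with a median of 8.55. NR4A2 (NURR1), a transcription factor of midbrain dopamine neurons, gave 9.99, 9.79 and 9.76, and TH, the rate-limiting enzyme of catecholamine synthesis, 9.07, 8.84 and 8.34. SLC10A4, a vesicle protein that monoamine and cholinergic neurons carry, gave 9.96, 10.35 and 9.99. SLC6A3, the dopamine transporter, gave 9.81 on the first array against 8.08 and 7.76 on the others, an SD of 1.10. Its first placebo array lay above all 9 arrays of the other groups, which ran from 7.22 to 8.65. A second SLC6A3 probe set, also above background, gave 7.35, 6.71 and 6.87, so the first array exceeded the mean of the others by 0.55 there and by 1.89 on the brighter probe set. DRD2, a dopamine receptor and autoreceptor, was highest on the first array too, at 8.23 against 7.49 and 7.28, as were TH and NR4A2. FOXA2, at 6.39, 6.43 and 5.80, was highest on the second array, and SLC10A4 was lowest on the first. In total 4 of the 6 genes were highest on the first array, against 44.1% of all genes whose mean reached background. The summed deposited intensity of the list was 3876, 3193 and 2697 on the 3 arrays. Of these sums the brighter SLC6A3 probe set alone gave 906, 274 and 217, so much of the excess on the first array was that probe set. LMX1A, a transcription factor of the dopamine lineage, was not above background at 4.71.

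Noradrenaline genes were close to the background. PHOX2A, a transcription factor of noradrenaline neurons, was the only 1 of 4 above it, at 6.91, 7.06 and 7.39. DBH, which makes noradrenaline from dopamine, gave 4.97 on the first array but 7.39 and 6.87 on the others. SLC6A2, the noradrenaline transporter, was likewise lowest on the first, at 4.97, 5.71 and 6.37. Without the first array, 3 of 4 noradrenaline genes were above background, PHOX2A, DBH and HAND2, against 76.6% of all genes. HAND2 passed narrowly, with deposited intensities of 62.2 and 41.4 against limits of 61.6 and 39.3. SLC6A2 still did not pass, at 51.6 on the second array.

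GABA genes were bright among the neuron types. GAD1, which makes GABA from glutamate, gave 11.07, 11.44 and 11.32 and ranked 291st. Its relative GAD2 gave 8.35, 9.59 and 9.29, and PVALB, a calcium-binding protein of fast-spiking neurons, 9.88, 9.25 and 10.04. DLX1, a transcription factor of forebrain GABA neurons, was not above background at 4.34. Of the glutamate list, SLC17A6, a vesicular transporter, had no probe set that could be named and was not analysed here. The 5 genes measured were dimmer, and 1 was above background (20.0%, against 70.2% of all genes). It was SLC17A8 (VGLUT3), the vesicular transporter that raphe neurons carry, at 6.63, 7.29 and 7.09. GRIN1, an NMDA receptor subunit, gave 5.27 on the first array against 8.44 and 8.62, and CAMK2A, a synaptic kinase, 5.85 against 6.83 and 6.90. Both reached the background rule without the first array, which gave 3 of 5, against 76.6% of all genes. SLC17A7, the cortical vesicular transporter, did not, at 4.02, 4.08 and 6.25, nor did SLC17A1 at 5.74. Neither of the 2 glycine genes, SLC6A5 and GLRA1, was above background.

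Of 5 cholinergic and motor neuron genes, 4 were above background (80.0%, against 70.2% of all genes). SLC18A3, the vesicular acetylcholine transporter, gave 7.55, 7.99 and 7.71, SLC5A7, the choline transporter, 7.47, 7.33 and 7.34, and CHAT, the synthetic enzyme, 6.76, 6.88 and 6.81. These differed little between animals, and the median SD of the 5 genes was 0.18. PRPH, an intermediate filament of motor and peripheral neurons, was the brightest at 8.78, and the transcription factor ISL1, at 5.98, did not pass.

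Neuropeptide genes reached high signal. Of 12 measured, 10 were above background (83.3%, against 70.2% of all genes) and 4 in the top decile, with a median of 9.33. SCG2 gave 11.87, 12.39 and 12.07, PENK, the enkephalin precursor, 11.44, 11.68 and 11.52, and CHGB, a chromogranin, 11.04, 11.61 and 11.32. CRH, the corticotropin-releasing hormone, gave 10.17, 9.94 and 9.88, and its relative UCN (urocortin), a peptide of the neighbouring Edinger-Westphal nucleus, 8.30, 7.58 and 7.70. CARTPT, a peptide also abundant in that nucleus, varied widely at 11.15, 8.74 and 9.57. CARTPT and UCN were both highest on the first array. So were 5 of the 12 neuropeptide genes in total, while 5 were lowest there. Among all genes whose mean reached background, 44.1% were highest on that array and 30.7% lowest. VIP and TAC3 were not above background, and each was lowest on the first array, VIP at 5.28 against 6.68 and 6.13.

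Genes of position and of tissues outside the raphe gave a measure of how far the background rule separates genes. Of 15 genes that pattern the hindbrain and its borders, 8 had no probe set that could be named, EN1, EN2 and PAX5 among them. Of the 7 measured, 1 was above background (14.3%, against 70.2% of all genes). It was HOXB5, at 6.96, 6.19 and 6.22, while its second probe set, at a mean of 3.64, did not pass. HOXA2, HOXA5, HOXB3, NKX6-1, OTX1 and PAX2 were not above background. Of 8 cerebellar neuron markers, 6 were above it (75.0%, near the share of all genes), among them PVALB, which the GABA list also holds, ZIC2 at 8.12 and ITPR1 at 8.38, while the Purkinje cell gene PCP2 lay at 3.22 and FAT2 at 5.69. Of 24 genes of liver, muscle, gut, skin, lung, kidney, pancreas, pituitary, testis or retina, 8 were above background (33.3%), against 70.2% of all genes. KRT10, a keratin of skin, had a mean of 9.68, LIPF, the gastric lipase, 8.18, and SERPINC1, antithrombin, 7.79. SRY, a gene of the Y chromosome that female animals lack, gave 8.15, 7.91 and 8.29, all above background. Its second probe set gave 5.64, 4.39 and 5.29 and was not above background. A signal above the bacterial controls therefore does not by itself show that a transcript was present. Of 6 blood and lymphocyte markers, 4 were above background (66.7%, near the 70.2% of all genes), with haemoglobin HBB at 8.0, 8.31 and 7.14.

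Genes of basic cell functions were bright as groups. Of 34 cytosolic ribosomal protein genes, 31 were above background and 26 in the top decile, with a median of 11.41. RPS28 led at 12.82, followed by RPS3 at 12.72 and RPS6 at 12.51, while RPL31, RPL5 and RPS19 were not above background. Of 55 subunits of oxidative phosphorylation, 53 were above background and 39 in the top decile, at a median of 10.74. COX6B1 (12.22) and UQCRQ (11.78) are examples, and ATP5PB and NDUFV3 did not pass. All 12 glycolysis enzymes passed, with ENO1 at 12.35 and ALDOA at 12.29. The 11 genes for metal binding and antioxidant defence passed as well, with SELENOP, the selenium carrier, at 12.54 and MT3, the brain metallothionein, at 11.92. HSP90AB1 (12.47), HSPA8 (12.34) and CRYAB (12.13) led 11 chaperones, which were all above background.

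Genes through which steroids act were at very different levels at this baseline. PGRMC1 gave 12.19, 12.37 and 12.24, FKBP4, a chaperone of steroid receptors, 10.05, 9.98 and 10.06, and TSC22D3 (GILZ), a glucocorticoid target, 10.13, 10.13 and 10.12. NR3C1, the glucocorticoid receptor, gave 8.27, 8.22 and 8.32. On these brightest probe sets, all 4 genes varied by less than 0.2 between animals. Some further probe sets of PGRMC1, FKBP4 and NR3C1 varied more, while others of PGRMC1 and FKBP4 did not. Of the sex steroid receptors, ESR2 (estrogen receptor beta) was above background at 7.22, 7.06 and 6.56 on its brightest probe set, but not on its others, with means of 4.83 and 3.81. ESR1 (estrogen receptor alpha), with a single probe set, was not, at 3.14, 5.60 and 5.30, nor was the progesterone receptor PGR, also with a single one, at 3.90, 2.32 and 3.24. GPER1 and FKBP5 did not pass either, so 7 of the 11 genes measured were above background (63.6%, against 70.2% of all genes). Of 11 immediate early and stress genes, 8 were above background (72.7%, near the 70.2% of all genes) and 0 in the top decile. DUSP1, a phosphatase induced by stress signals, was the brightest at 9.74, and FOS lay at 7.65, 7.63 and 7.18.

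The 3 placebo arrays ranked the genes alike. Across 12993 genes the rank correlation was 0.967 between the first and second arrays, 0.962 between the first and the third, and 0.979 between the second and the third. Genes are not independent replicates, and these values describe the arrays only. The mean of the placebo arrays had rank correlations of 0.971 to 0.982 with the 9 arrays of the other groups. Among the 10207 genes whose mean reached the background level, the median SD over the placebo arrays was 0.19, against 0.23 in the estrogen group, 0.21 with estrogen plus progesterone and 0.24 with progesterone. The spread fell with signal, from a median SD of 0.31 in the dimmest decile to 0.12 in the brightest. Of these genes, 740 (7.25%) spanned over 2-fold between the highest and lowest placebo array, and 102 (0.999%) over 4-fold. In the dimmest decile 21.4% spanned over 2-fold, and in the brightest 1.47%. The steadiest genes were PSMB7, a proteasome subunit, at 10.66, 10.67 and 10.66, SMNDC1, a splicing factor, at 10.53, 10.54 and 10.53, and FAM20B, HS3ST1 and TSC22D3.

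**Figure D4:**
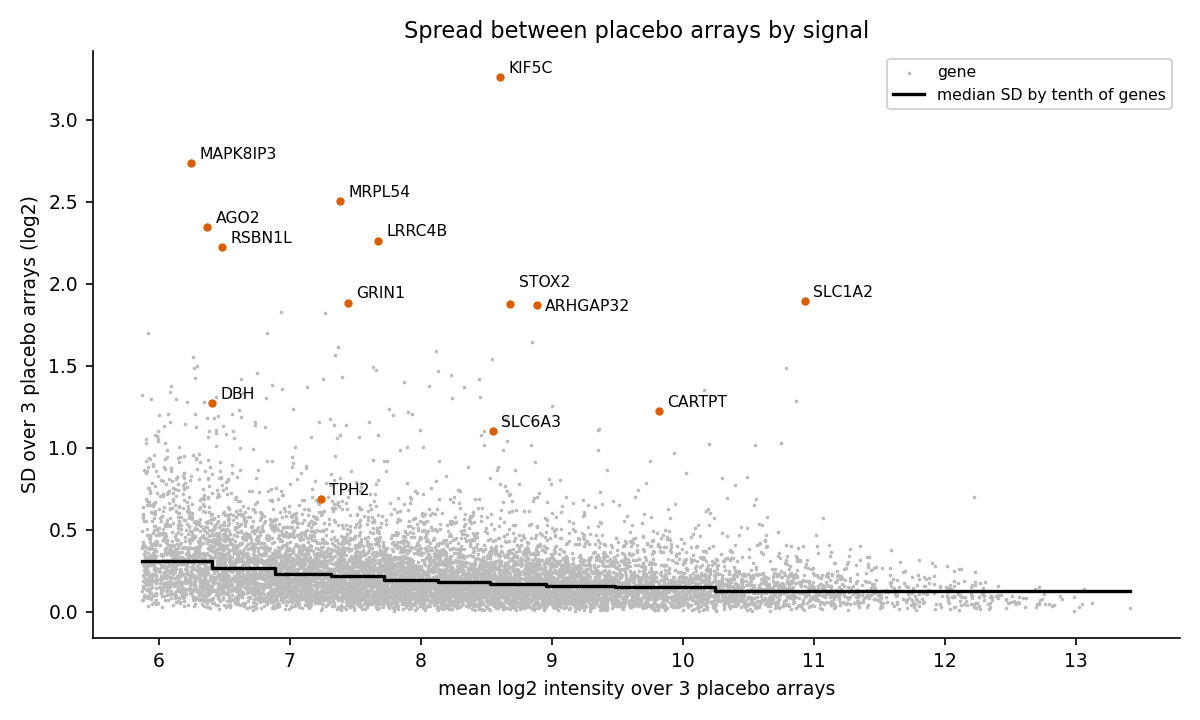
SD over the 3 placebo arrays (y axis, log2) against mean log2 intensity (x axis) for 10207 genes whose mean reached background, with a line at the median SD in each decile of genes by signal. The line falls from 0.31 to 0.12, and the named genes lie far above it, KIF5C at 3.26.

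The spread of the neuron type lists was set beside that of all genes at the same signal. The 8 serotonin genes that reached background on average had a median SD of 0.44, where genes of the same deciles of signal had 0.19. For 2 noradrenaline genes the values were 0.76 and 0.25, and for 3 glutamate genes 0.59 and 0.23. For 6 dopamine genes the values were 0.37 and 0.17, for 3 GABA genes 0.42 and 0.15, and for 13 microglia genes 0.30 and 0.17. For general neuron markers they were 0.11 and 0.12, and for the cholinergic genes 0.18 and 0.22. Of the 8 serotonin genes 3 spanned over 2-fold, TPH2, SLC22A3 and GATA2, the last on its brightest probe set alone. Of 11 astrocyte genes 2 did, SLC1A2 and SOX9.

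The first placebo array stood apart from the others more often than they did from each other. Of the 740 genes spanning over 2-fold, it was the array farthest from the other two in 422 (57.0%), the second array in 137 (18.5%) and the third in 181 (24.5%). It was the lower one in 299 of the 422, the second array in 94 of its 137 and the third in 134 of its 181, so the array apart was mostly the lower one whichever it was. Between pairs, 402 genes differed over 2-fold between the first and second arrays, 489 between the first and the third, and 186 between the second and the third. Its bacterial controls were brighter, as given above, and its actin control probe sets had a log2 difference between the 3′ and 5′ ends of 0.63, against 0.38 and 0.11. That of GAPDH was 0.42, 0.50 and 0.48. The part of these differences in the gene values was not tested.

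The genes farthest below the others on the first array included neuronal and astrocyte genes. KIF5C, a neuronal kinesin that carries cargo along axons, gave 4.86 against 10.18 and 10.78, and its value on the 9 arrays of the other groups ran from 10.38 to 11.84. SLC1A2 (GLT-1), the main glutamate transporter of astrocytes, gave 8.75 against 12.01 and 12.04, with 11.69 to 12.21 on those 9 arrays. Both were thus low on 1 array of 12. A second probe set of KIF5C gave 6.99, 7.76 and 7.85, a smaller gap in the same direction, and SLC1A2 had a single named probe set. AGO2, the slicer of small RNA silencing, gave 3.67 against 7.47 and 7.96, and MRPL54, a mitochondrial ribosomal protein, 4.50 against 8.67 and 8.98. MAPK8IP3, an adaptor of axonal transport, gave 3.09 against 7.92 and 7.73. LRRC4B, a synaptic adhesion protein, gave 5.08 against 8.69 and 9.26. MAPK8IP3, LRRC4B and GRIN1 were also low on some arrays of the other groups, whose lowest values were 2.85, 4.52 and 4.81. VAMP2, the vesicle SNARE of synapses, gave 6.74 against 8.38 and 8.85.

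In all, 66 genes were apart and low on the first array among those spanning over 4-fold. Of these, 49 lay below all 9 arrays of the other groups, which follows in part from picking genes low on the first array. Among all 10207 genes whose mean reached background, the first array lay below all 11 others in 756. Other probe sets of the 66 genes showed a smaller gap. The 66 genes were picked for a wide gap on their brightest probe sets. A smaller gap on unpicked probe sets follows in part from that choice. Of the 66 genes, 18 had a further probe set that reached background, 28 probe sets in total. The median difference of the first array from the mean of the others was -0.32 on these (SD 0.95), against -2.31 on the brightest probe sets of the 66 genes. It was below 0 in 24 of the 28, and 5 were over 4-fold lower.

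The 8 genes farthest above the others on the first array included an immune receptor and a dopamine neuron gene. CD96, a receptor of T and NK cells, gave 7.86 against 4.69 and 5.21, and GZMH, a granzyme of cytotoxic lymphocytes, 7.5 against 4.92 and 5.98. E2F1, a cell cycle transcription factor, gave 8.88 against 6.58 and 6.30, within the range of 5.90 to 9.09 on the other groups' arrays. CARTPT, SLC6A3, FOXI1, NUP88 and PPP1R27 completed the 8 genes. CD96, FOXI1, GZMH and PPP1R27 reached the background level on average only through the first array, so they had to differ. A second CD96 probe set ran the other way, at 4.04 against 6.79 and 4.68, and was not above background, and a second E2F1 probe set gave 6.16, 6.03 and 5.73. On the probe sets ranked, the first placebo array exceeded all 9 arrays of the other groups for CD96, GZMH, SLC6A3, FOXI1 and NUP88. For E2F1, PPP1R27 and CARTPT it did not, and CARTPT reached 12.05 on those arrays.

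**Figure D5:**
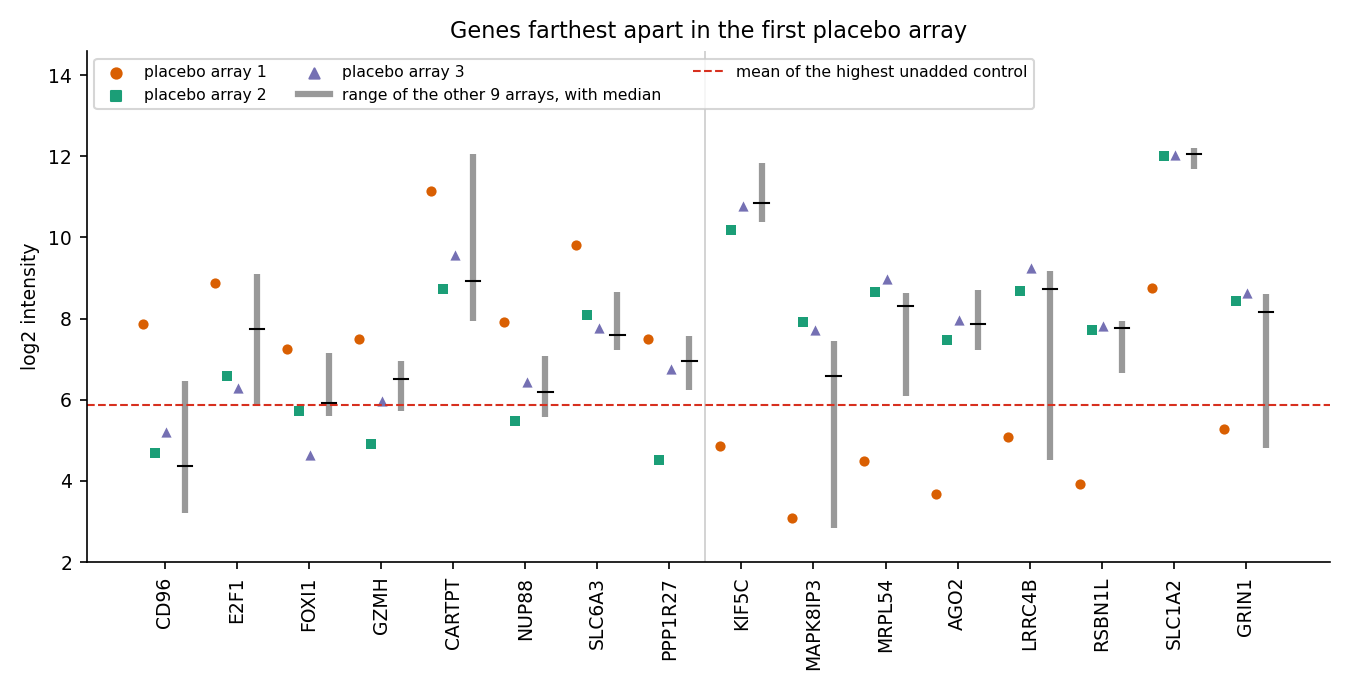
Log2 intensity (y axis) on each placebo array of the 8 genes farthest above and the 8 farthest below the other placebo arrays in the first (x axis), with a grey bar for the range and a line for the median of the 9 arrays of the other groups and a dashed line at the mean background level of 5.87. KIF5C and SLC1A2 lie far below every other array on the first (4.86 and 8.75), while E2F1 and CARTPT lie within the grey range.

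Marker lists moved with the first array in part. Among all genes reaching background on average, 44.1% were highest on the first array and 30.7% lowest, with a median difference of 0.06 from the others. Of 13 microglia genes, 10 were highest there and 1 was lowest, and the median difference was 0.39. The summed deposited intensity of the microglia list was 7945 on the first array against 5826 and 5950. All list sums are of deposited intensity before quantile normalization, so differences in scale between arrays also enter them. Of 9 endothelial and mural genes, 8 were highest and 0 lowest there, with a median difference of 0.35 and sums of 3693, 2566 and 2780. Of 10 oligodendrocyte genes, 8 were highest there and 2 lowest, with a median difference of 0.27 and sums of 33179, 27124 and 31008. In these sums MBP gave 10484, 9218 and 11160, while its normalized log2 values were 13.39, 13.43 and 13.43. Genes of other tissues did the same: 6 of 9 were highest and 0 lowest, with a median difference of 0.40. General neuron markers ran the other way, with 2 of 9 highest and 6 lowest and a median difference of -0.12, while their sums differed little at 27313, 28188 and 28058. The part of cell makeup, dissection or array quality in these differences was not tested.

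The difference between the first array and the others was also taken by replicate number in the other groups, for which the labels name no shared batch or day. Across the 10207 genes, the difference under placebo correlated with that in the estrogen group by r = 0.22 and rho = 0.27, and in the estrogen plus progesterone group by r = 0.24 and rho = 0.27. In the progesterone group the values were -0.25 and -0.24. KIF5C differed by -5.62 under placebo and by -0.08, 0.68 and 0.62 in the estrogen, combined and progesterone groups, and SLC1A2 by -3.28 against 0.40, 0.03 and 0.07.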

How the data were processed

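Total RNA from the dorsal raphe of 12 female rhesus monkeys was purified with Trizol and RNeasy columns and biotin-labelled with an Enzo kit, per the labels' protocols. The deposited values are linear intensity, 1 per probe set, scaled by the authors: with 2% of values trimmed at each end, the mean is 200.0 on each placebo array. Their software is not given in the sources used.

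Of 52865 probe sets, 99 controls were removed. Deposited intensity was raised to at least 4.99, the 5th percentile over the arrays, log2 transformed and quantile normalized over the 12 arrays (numpy 2.4.6, pandas 2.3.3, Python 3.11.15). A gene was its brightest probe set by the placebo mean. Symbols came from the platform's annotation of 2016. Background was the brightest of 42 Bacillus subtilis controls on each array.

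No test was run: 3 arrays of 1 group give a mean, an SD and a range, and their number limits the precision. Replicates are separate animals. Members, lists and rules were chosen with earlier results of these data known. Genes named were taken from the 25 brightest; of each list the 3 brightest, the dimmest and members not above background (not every gene so taken is named); all measured serotonin genes; the 10 largest and 5 smallest SDs; and the 8 genes farthest above and below on the first array. APOE, CHAT, CRH, DRD2, ESR2, FOS, FOXA2, NR3C1, S100B, UCN, UQCRQ and VAMP2 fall outside this rule and were named after their values were seen. The steps were checked on simulated data. Alternatives were another floor, no or placebo-only normalization, other background rules, the mean of a gene's probe sets, no probe sets shared between genes, and leaving out each array.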

Additional observations from a re-analysis of the deposited data

How the results depend on the processing

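The count of genes above background was 9120 and lay between 6953 and 10122 under the settings that kept the bacterial controls, but fell to 4411 with the Y-linked gene as the limit. TPH2 alone of the 4 serotonin markers was lost with that limit and with a limit of 2 times the controls. Of the 100 brightest genes, 52 remained when a gene was the mean of its probe sets. The 740 genes spanning over 2-fold became 1973 with no filter on signal and 244 among genes above the median signal, and 208 to 473 when 1 array was left out, where a range over fewer arrays is smaller by construction. The lowest of these counts, 208, came without the first array. The other 47 of 54 values of the main counts stayed within their limits, as did 963 of 1104 values of single genes and lists. No paired analysis was possible because no groups were compared and no test was run. Arrays give no read depth. The median SD was highest among the genes nearest the background, and the group holds 3 arrays.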
